A study of Mus musculus with 8 samples.

Results

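Nitric oxide synthases and the genes that control them were examined in mouse heart ventricles, as the rows of a deposited expression table whose gene symbol is Nos1, Nos2, Nos3, Nos1ap, Ddah1 or Ddah2. All 6 symbols were found, each in 1 row, among 54429 rows. The genes were listed with the contrast described here already known, because Nos1 was among its largest differences. The differences between the groups in these 6 genes are therefore given as a description, with no test. RNA was sequenced from both ventricles of C57BL/6 mice at postnatal day 35. All mice carried loxP sites in the genes for the estrogen-related receptors alpha and gamma (Esrra and Esrrg), transcription factors of energy metabolism. On postnatal day 0 to 1 they received an adeno-associated virus (AAV). In the group labelled AAV-Cre (4 libraries) the virus expressed Cre recombinase from the promoter of cardiac troponin T, which is active in cardiomyocytes, so that other cells of the ventricle are not the intended target. In the group labelled AAV-Luc (4 libraries) the virus carried luciferase. The comparison asks how gene expression differs when both receptors are targeted in heart muscle after birth. Values are RPKM, that is reads scaled to the length of the gene and the size of the library, as deposited by the authors. Libraries are numbered by column order within a group, and the numbers are names only. Nothing in the labels ties a library to its own mouse, so errors and p-values rest on variation among libraries, some of which may be technical. The standard errors (SE) of fold changes and the p-values also draw on a variance trend over all genes tested.

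Nitric oxide is a short-lived gas made from arginine by nitric oxide synthases. Nos1, the neuronal synthase, is also found in striated muscle, where in heart cells it sits near the calcium release channels of the sarcoplasmic reticulum. Nos2 is the inducible synthase of macrophages and inflamed tissue, and Nos3 is the endothelial synthase that relaxes blood vessels. Nos1ap encodes an adaptor protein that binds the neuronal synthase, and human variants near this gene are associated with the QT interval of the electrocardiogram. Ddah1 and Ddah2 encode dimethylarginine dimethylaminohydrolases, of which Ddah1 is the established enzyme for breaking down asymmetric dimethylarginine, an inhibitor of all synthases.

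Some facts of the whole series bear on every value below. Total reads per library, worked out from the step that a single read makes in RPKM, ran from about 48300000 to 61300000. The median log2 fold change of the 16385 genes tested was 0.41, a factor of 1.33 in favour of AAV-Cre, so each difference is given as deposited and after centring every library on its median, which removes that shift. The targeted gene Esrrg was higher in the libraries labelled AAV-Cre (218 ± 17.7 against 113 ± 5.51 RPKM, SD, n = 4 each), against the direction of its label. Esrra was at 39.1 ± 4.66 against 45.1 ± 3.66 RPKM. These values sum over whole genes and cannot tell if floxed exons are missing, so the groups are called by their labels. Defining markers of cardiomyocytes were abundant in every library, with a sum over 7 genes of 19311 to 22999 RPKM in AAV-Cre and 22188 to 25411 in AAV-Luc. Single markers moved in opposite directions, as with Tnnt2 (mean 5373 against 3647 RPKM) and Myl2 (1885 against 4298). Of the 7, 2 rose and 3 fell (limma with Benjamini-Hochberg adjustment), where 64.4% of all genes rose and 8.87% fell. After centring, 0 rose and 5 fell, where 21.8% of all genes rose and 24.1% fell. The atrial marker Myl7 was highest in AAV-Cre library 3 and AAV-Luc library 2, at 113 and 26.2 RPKM, and results without these libraries are given below.

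The leading synthase of the ventricle differed between the groups. In the libraries labelled AAV-Luc, Nos3 made up most of the summed RPKM of the synthase genes and Nos1 almost none, while in AAV-Cre most of that sum was Nos1. Nos1ap and Ddah1 were also higher in every AAV-Cre library, Nos2 was lower in every one, and Nos3 and Ddah2 overlapped between the groups. In counts, 3 of the 6 genes lay higher in AAV-Cre without overlap and 1 lay lower, where 58.4% and 7.67% of all tested genes did so. After centring, 3 lay higher and 2 lower, the second being Nos3, against 20.1% and 23.3% of all genes. As the genes were chosen with this contrast known, nothing is read from these counts. The median log2 fold change of the 6 was 0.51, against 0.41 for all genes. All 6 passed the filter on low values (at least 1 RPKM in at least 4 libraries), but Nos1 passed it only through the AAV-Cre libraries and so had to differ.

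**Figure D1:**
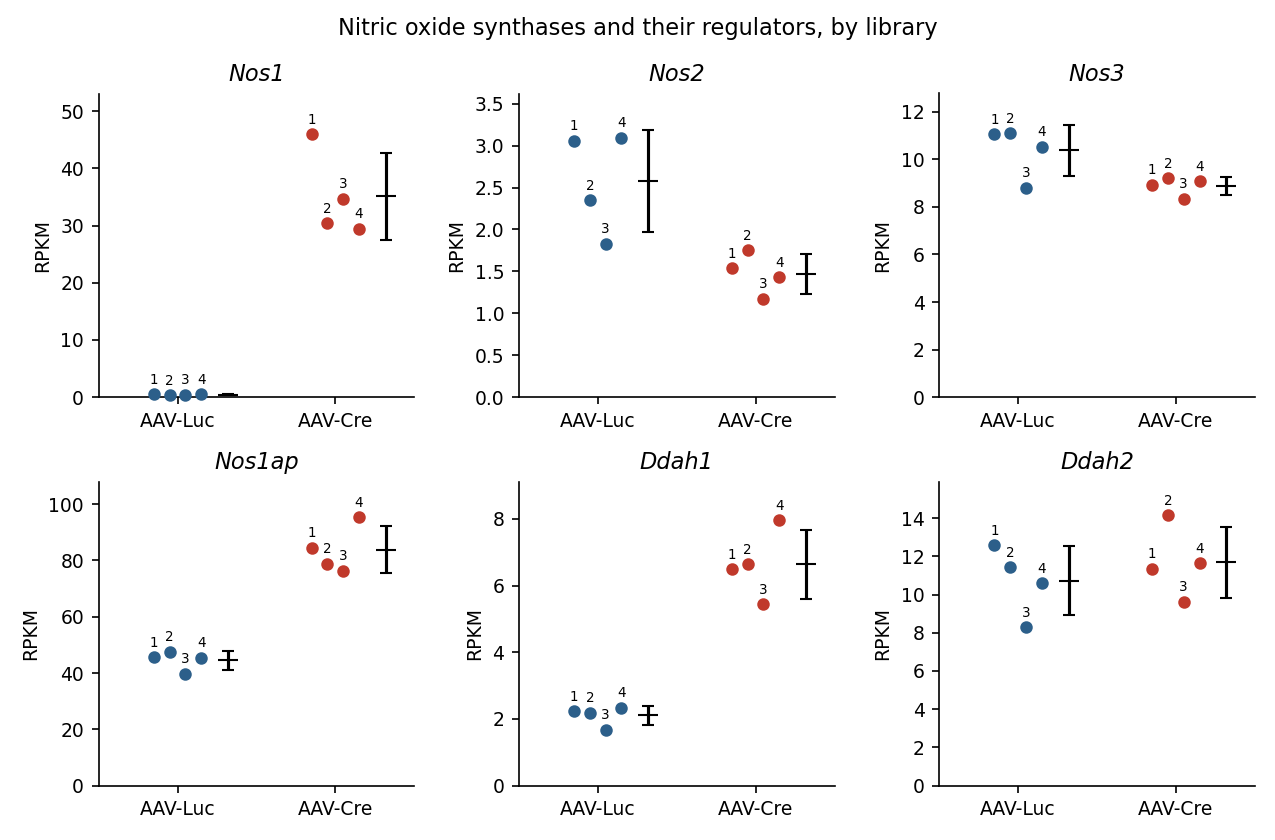
RPKM of the 6 genes in each library, with 1 panel per gene and a linear axis from 0. Points are libraries, numbered as in the text, and the bar beside each group is the mean with the SD of 4 libraries. Nos1, Nos1ap and Ddah1 are higher in every AAV-Cre library (red) than in any AAV-Luc library (blue), Nos2 is lower, and Nos3 and Ddah2 overlap.

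The sequences before the start sites of the genes that lay higher in AAV-Cre are shown because the receptors targeted in this study bind DNA at the element TNAAGGTCA, which holds the nuclear receptor core AGGTCA. Each run is the 250 bases before a start site in RefSeq (build GRCm38.p6, the assembly also called mm10), read 5′ to 3′ on the strand of the gene, and capitals mark the GC box GGGCGG or its complement.
Nos1, chr5:117866589-117866838, plus strand: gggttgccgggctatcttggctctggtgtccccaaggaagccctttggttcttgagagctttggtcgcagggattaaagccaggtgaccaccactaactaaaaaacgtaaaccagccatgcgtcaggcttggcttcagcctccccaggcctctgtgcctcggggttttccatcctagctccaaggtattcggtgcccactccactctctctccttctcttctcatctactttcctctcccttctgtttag
Nos1ap, chr1:170589850-170590099, minus strand: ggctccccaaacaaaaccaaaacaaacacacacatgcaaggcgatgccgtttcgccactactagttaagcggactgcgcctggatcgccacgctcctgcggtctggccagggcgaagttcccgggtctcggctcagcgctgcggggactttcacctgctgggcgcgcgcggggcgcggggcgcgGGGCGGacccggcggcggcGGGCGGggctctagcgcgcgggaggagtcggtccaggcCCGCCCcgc
Ddah1, chr3:145758442-145758691, plus strand: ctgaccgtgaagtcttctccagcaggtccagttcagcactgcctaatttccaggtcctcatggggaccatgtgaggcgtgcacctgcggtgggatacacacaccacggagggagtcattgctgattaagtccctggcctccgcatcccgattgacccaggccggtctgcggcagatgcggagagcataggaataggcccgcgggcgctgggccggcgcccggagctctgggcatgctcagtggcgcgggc

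Windows were available for Nos1, Nos1ap, Ddah1 and Ddah2, with a pair for Nos1ap. The motifs TNAAGGTCA, AAGGTCA and AGGTCA, each contained in the one before, were searched on both strands and matched in none of these windows. Of 32851 windows of the same length over all genes, 1.14%, 4.08% and 14.0% held them. The TATA box letters TATAAA were also absent, and are in 12.4% of windows. The GC box was found in 2 of the 4 genes, Nos1ap and Ddah2, and in 32.7% of all windows. The Nos1ap window shown was 71.2% G or C, the Ddah1 window 64.0% and the Nos1 window 54.0%, against a median of 52.4%. The Nos1 window lies 85807 bases inside the gene as GENCODE M21 draws it, before a start that RefSeq lists. Whether transcription starts there in these hearts was not tested. No window at the outer start of Nos1 was searched, so the search says nothing of a promoter there. The absence of a match says only that these letters are not in these windows.

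Nos1 lies on chromosome 5 from 117781032 to 117958840 (mm10, plus strand, protein-coding, 7 annotated transcripts). It measured 46.0, 30.5, 34.7 and 29.4 RPKM in AAV-Cre libraries 1 to 4. In AAV-Luc libraries 1 to 4 it measured 0.488, 0.338, 0.414 and 0.505 RPKM. All 4 AAV-Cre libraries were thus far above all 4 AAV-Luc libraries, and library 1 of AAV-Cre stood highest. The means were 35.1 ± 7.57 against 0.436 ± 0.076 RPKM (SD, n = 4 each), a ratio of 80.5, and the ratio of single libraries ran from 58.3 to 136. On the log2(RPKM + 0.5) scale, on which fold changes of low genes come out smaller, the difference was 5.23 (SE 0.14), or 4.82 after centring. This was rank 9 of the 16385 genes from the highest log2 fold change. The gene was listed because of this difference, so the rank only restates that choice.

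The low level of Nos1 in AAV-Luc rested on reads and not on a value of 0. With the implied totals and the shortest annotated transcript, of 631 bases, AAV-Luc libraries held 10 to 19 reads and AAV-Cre libraries 1098 to 1679. With the longest, of 10123 bases, these became 165 to 303 and 17612 to 26936 reads. The length the authors used is not given in the sources used here, so these are examples at 2 lengths and do not bound the count. The joined exons of Nos1 span 11151 bases, more than its longest transcript. RPKM sums over a gene and does not separate the transcripts. Gm26995, an antisense gene that shares 268 exon bases (2.40%) with Nos1, was listed at 0 in every AAV-Luc library and at 0.659 to 1.13 RPKM in AAV-Cre, which was 0.022 to 0.030 of the Nos1 value. Reads of such a pair cannot be told apart unless strand was used, which the sources used here do not state.

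Nos1 is also expressed in some neurons and skeletal muscle fibres, whose marker lists were read beside it. Of 11 neuronal markers, 8 stayed under 1 RPKM in every library, and Slc18a3, which defines cholinergic neurons, was listed at 0 in all 8 libraries. The sum of the neuronal list was nevertheless higher in AAV-Cre, at 9.19 to 12.7 against 3.52 to 4.60 RPKM, mainly through the synaptic vesicle gene Syn1 (mean 5.64 against 0.654 RPKM). Of 10 skeletal muscle markers, 8 stayed under 1 RPKM everywhere, among them the fast myosins Myh1, Myh2 and Myh4. Their sum was 8.14 to 14.6 against 1.60 to 2.39 RPKM, mostly from the light chain gene Mylpf (mean 8.79 against 1.13 RPKM). Another light chain gene of skeletal muscle, Myl1, is not in the list and is named because its profile was among the closest to Nos1. Its mean was 938 against 22.9 RPKM, a rise beside Nos1 that this choice fixed in advance. Atrial markers were higher too, with a sum over 4 genes of 90.3 to 226 against 8.29 to 53.2 RPKM. Their part in the Nos1 difference was not tested. Without the library of each group with most Myl7, the log2 fold change of Nos1 was 5.18. In ventricle tissue, a change in the number of cells of a type and a change in RNA per cell cannot be told apart.

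**Figure D2:**
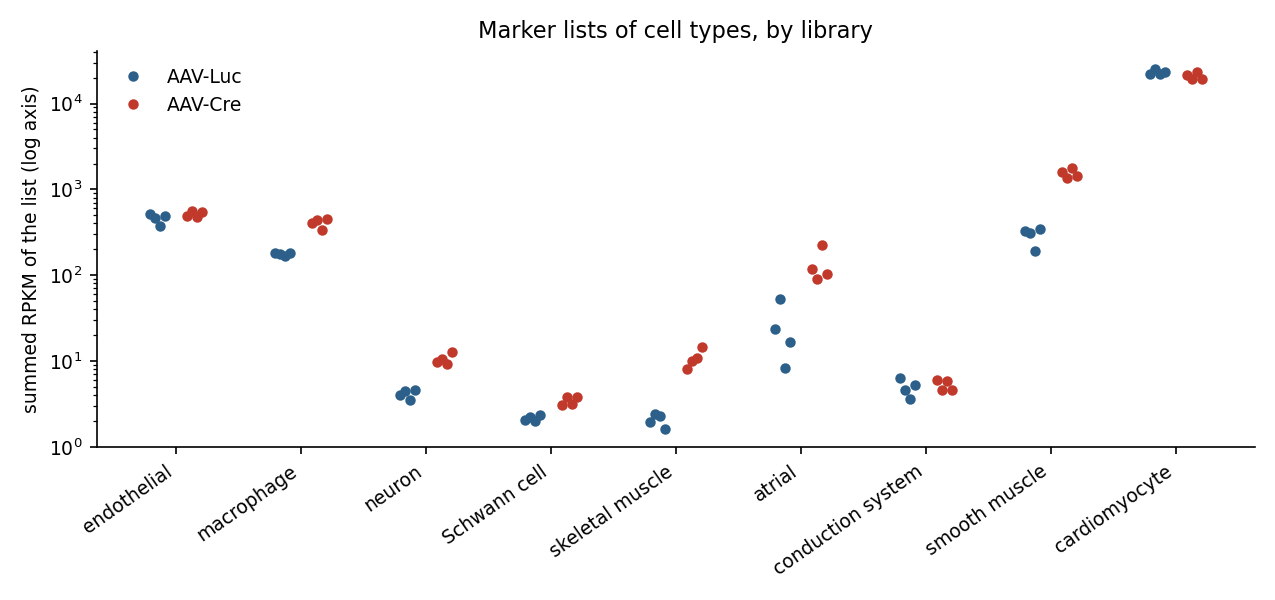
Summed RPKM of the marker list of each cell type in each library, on a log axis, with AAV-Luc in blue and AAV-Cre in red. Macrophage, neuron, Schwann cell, skeletal muscle, atrial and smooth muscle sums are higher in every AAV-Cre library, while endothelial, conduction system and cardiomyocyte sums overlap between the groups.

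Nos2, on chromosome 11 from 78920787 to 78960254, was the lowest of the 6 genes in AAV-Cre. It measured 1.53, 1.75, 1.18 and 1.43 RPKM in AAV-Cre libraries 1 to 4. In AAV-Luc it measured 3.06, 2.35, 1.83 and 3.10 RPKM. Every AAV-Cre library was below every AAV-Luc library, but AAV-Cre library 2 and AAV-Luc library 3 nearly met. The means were 1.47 ± 0.24 against 2.58 ± 0.61 RPKM, and the log2 fold change was -0.63 (SE 0.16), or -1.04 after centring. With the longest transcript, of 4192 bases, libraries held 257 to 786 reads. Macrophages are a known source of this synthase. All 10 macrophage markers rose in AAV-Cre, as deposited and after centring (limma with Benjamini-Hochberg adjustment over all genes), where 64.4% and 21.8% of all genes rose. Their sum went from 169 to 183 RPKM in AAV-Luc to 339 to 454 in AAV-Cre. Nos2 amounted to 1.09 to 1.70% of that sum in AAV-Luc and 0.315 to 0.398% in AAV-Cre, and the part of macrophage RNA in the Nos2 values was not tested.

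Nos3 lies on chromosome 5 from 24364810 to 24384474 and varied least among the AAV-Cre libraries, with a coefficient of variation of 4.30%. It measured 8.94, 9.20, 8.35 and 9.09 RPKM in AAV-Cre libraries 1 to 4. In AAV-Luc it measured 11.1, 11.1, 8.81 and 10.5 RPKM. The groups overlapped because AAV-Luc library 3 lay within the AAV-Cre range, while the other AAV-Luc libraries were above it. The means were 8.90 ± 0.38 against 10.4 ± 1.08 RPKM, with a log2 fold change of -0.21 (SE 0.08) as deposited. After centring it was -0.61 (SE 0.06), and the groups no longer overlapped. The antisense gene Gm15587 shares 25.2% of the exon bases of Nos3, and its RPKM was 0.877 to 0.909 of that of Nos3 in all 8 libraries, so the reads of both are uncertain.

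Nos3 is made by endothelial cells, whose markers were read beside it. Of 10 endothelial markers, 2 rose and 1 fell as deposited (limma with Benjamini-Hochberg adjustment), where 64.4% of all genes rose and 8.87% fell. After centring, 1 rose and 7 fell, where 21.8% of all genes rose and 24.1% fell. Their sum was 477 to 567 RPKM in AAV-Cre and 374 to 516 in AAV-Luc, and AAV-Luc library 3 was lowest for this sum as for Nos3. Nos3 amounted to 1.62 to 1.82% of that sum in AAV-Cre and 2.15 to 2.42% in AAV-Luc, ranges that did not overlap. The markers in the sum did not move together, so this share depends on which of them are summed. Vwf was at a mean of 108 RPKM in AAV-Cre against 42.7 in AAV-Luc. Egfl7 was at 215 against 214, while Cdh5 was at 37.3 against 46.3 and Erg at 7.75 against 9.56. The part of endothelial RNA in the Nos3 values was not tested.

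As shares of the summed RPKM of the synthase genes, Nos1 made up 76.8% ± 3.86 in AAV-Cre and 3.28% ± 0.58 in AAV-Luc (SD, n = 4 each). The share of Nos3 was 19.9% ± 3.22 against 77.6% ± 2.93, and that of Nos2 was 3.30% ± 0.75 against 19.1% ± 2.70. Shares do not change when all genes of a library are scaled by the same factor. Whether the shift between the groups is such a factor was not tested. The sum itself was 40.0 to 56.5 RPKM in AAV-Cre and 11.1 to 14.6 in AAV-Luc, with no overlap. In AAV-Cre, Nos1 measured 3.24 to 5.14 for each unit of Nos3, and in AAV-Luc Nos3 measured 20.9 to 32.9 for each unit of Nos1. The order of levels was thus Nos3, Nos2, Nos1 in all AAV-Luc libraries and Nos1, Nos3, Nos2 in all AAV-Cre libraries. RPKM compares genes per length, with gene lengths set by the authors that are not given here.

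**Figure D3:**
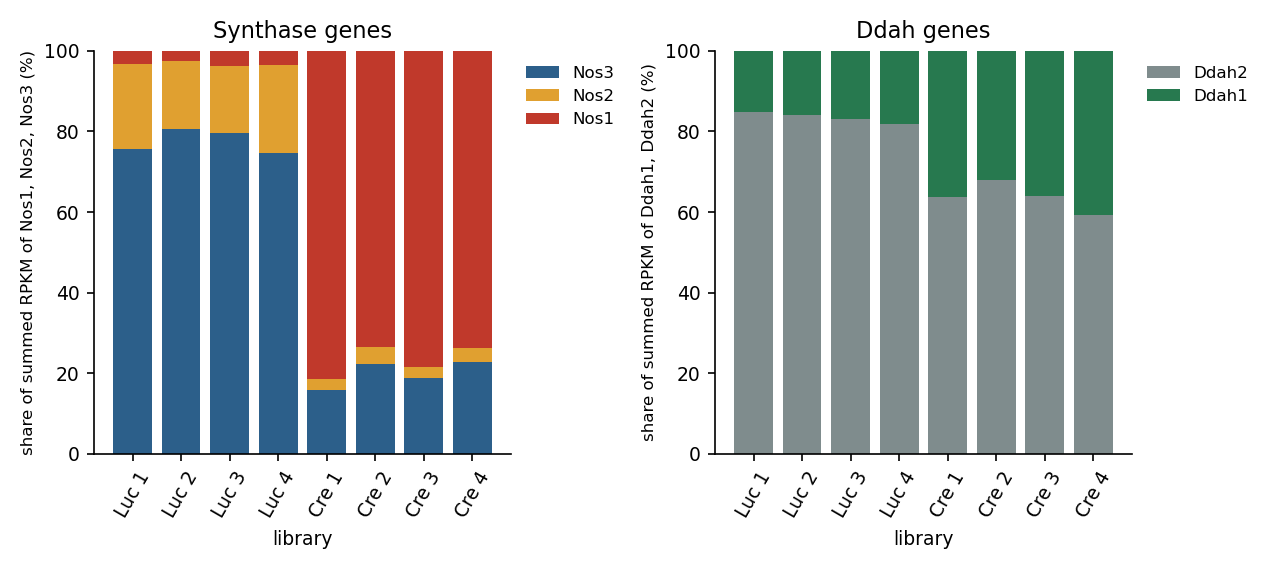
Shares of summed RPKM in each library, as stacked bars from 0 to 100%. On the left, Nos1 holds 73.6 to 81.4% of the 3 synthases in AAV-Cre and 2.45 to 3.75% in AAV-Luc. On the right, Ddah1 holds 31.9 to 40.7% of the Ddah sum in AAV-Cre and 15.1 to 18.1% in AAV-Luc.

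Nos1ap, the adaptor of the neuronal synthase, had the highest level of the 6 genes in every library. The gene lies on chromosome 1 from 170302668 to 170589861, on the minus strand, with 9 annotated transcripts. It measured 84.5, 78.9, 76.4 and 95.3 RPKM in AAV-Cre libraries 1 to 4. In AAV-Luc it measured 45.6, 47.6, 39.7 and 45.5 RPKM. The lowest AAV-Cre library was well above the highest AAV-Luc library. The means were 83.8 ± 8.38 against 44.6 ± 3.37 RPKM, a ratio of 1.88, with a log2 fold change of 0.90 (SE 0.09), or 0.49 (SE 0.07) after centring. Nos1ap was already high where Nos1 was under 1 RPKM: there were 90.1 to 141 RPKM of Nos1ap for each RPKM of Nos1 in AAV-Luc, and 1.84 to 3.24 in AAV-Cre. AAV-Cre library 4, the highest for Nos1ap and Ddah1, was the lowest of its group for Nos1. Gm7694, which shares 2.36% of the exon bases of Nos1ap on the same strand, was at 1.22 to 2.24 RPKM.

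Ddah1, which clears the inhibitor asymmetric dimethylarginine, lies on chromosome 3 from 145758675 to 145894277. It measured 6.49, 6.64, 5.44 and 7.97 RPKM in AAV-Cre libraries 1 to 4. In AAV-Luc it measured 2.23, 2.19, 1.68 and 2.33 RPKM. All AAV-Cre libraries were above all AAV-Luc libraries. The means were 6.64 ± 1.04 against 2.11 ± 0.29 RPKM, a ratio of 3.15, with a log2 fold change of 1.45 (SE 0.12), or 1.04 (SE 0.11) after centring. It ranked 520 of 16385 from the highest log2 fold change. With its longest transcript, of 3764 bases, libraries held 374 to 1780 reads.

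Ddah2, the relative of Ddah1 in the class III region of the major histocompatibility complex, lies on chromosome 17 from 35059035 to 35062095. It measured 11.4, 14.1, 9.62 and 11.6 RPKM in AAV-Cre libraries 1 to 4. In AAV-Luc it measured 12.6, 11.4, 8.29 and 10.6 RPKM. The groups overlapped over most of their range, and the means of 11.7 ± 1.87 and 10.7 ± 1.82 RPKM differed by less than the SD. Its log2 fold change was 0.12 (SE 0.14) as deposited and -0.29 (SE 0.12) after centring, so its direction depends on the scaling. Ddah2 exceeded Ddah1 in every library, by 4.53 to 5.63 times in AAV-Luc and by 1.46 to 2.13 times in AAV-Cre. Ddah1 accordingly made up 36.3% ± 3.56 of the Ddah sum in AAV-Cre and 16.5% ± 1.27 in AAV-Luc.

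Within each group the genes other than Nos1 shared a low library. In AAV-Cre library 3, 5 of the 6 genes were at the lowest value of their group, and the same 5 genes were lowest in AAV-Luc library 3. After centring, these were again 5 and 5. The exception was Nos1, lowest in AAV-Cre library 4 and AAV-Luc library 2. The medians of all tested genes were also lowest in libraries 3, at 7.57 RPKM in AAV-Cre and 5.30 in AAV-Luc.

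By the root mean square difference of log2 profiles over the 8 libraries, with the mean of each gene removed, the genes most like Nos1 were Rxfp1 (0.278), Grin2c (0.321), Aqp8 (0.330), Myl1 (0.367) and Mlana (0.396). This measure is dominated by the difference between the groups. Rxfp1 encodes a relaxin receptor and measured 32.9 ± 2.34 against 0.259 ± 0.086 RPKM. Myl1, the skeletal muscle light chain gene, was the only one of the 5 above 1 RPKM in AAV-Luc, at 938 ± 187 against 22.9 ± 5.13 RPKM. None of the 5 was among the 5 with the highest Pearson correlation to Nos1.

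The other genes of the pathway were read from a list of 63 genes in 6 roles, of which 55 passed the filter. Of these, 34 rose and 2 fell in AAV-Cre (limma on log2(RPKM + 0.5), Benjamini-Hochberg adjustment over all 16385 genes), that is 61.8% and 3.64%, beside 64.4% and 8.87% of all genes, of which 73.3% were called in either direction. After centring, 20 rose and 19 fell, or 36.4% and 34.5%, beside 21.8% and 24.1% of all genes. The median log2 fold change of the list was 0.54, against 0.41 for all genes. The largest rises in the list were Mrvi1, Pcbd1 and Slc7a2, and the genes that fell as deposited were Mb and Pde2a.

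Of 4 tested genes for arginine supply, 3 rose, or 75.0%, near the 64.4% of all genes. After centring, 2 rose and 1 fell, where 21.8% of all genes rose and 24.1% fell. Slc7a2, a cationic amino acid transporter that brings in arginine, rose from 1.07 ± 0.07 to 4.93 ± 0.53 RPKM, a log2 difference of 1.79 (SE 0.09, limma adjusted p = 7.48e-07). Ass1 and Asl, which rebuild arginine from citrulline, rose by 1.02 and 0.71 on the log2 scale, though Asl was not called after centring (limma adjusted p = 0.0569). The other transporter, Slc7a1, was not called at 6.78 ± 0.38 against 6.02 ± 0.50 RPKM (limma adjusted p = 0.0846), and was called lower after centring (log2 fold change -0.25). Arg2, an arginase that competes for arginine, did not pass the filter (mean 0.849 against 0.560 RPKM).

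Of 5 tested genes for the cofactor tetrahydrobiopterin, only Pcbd1 was called as deposited, where 64.4% of all genes rose and 8.87% fell. After centring, 1 rose and 3 fell, where 21.8% of all genes rose and 24.1% fell. Pcbd1, which recycles the cofactor after aromatic amino acid hydroxylation and also serves as a partner of a transcription factor, rose from 1.96 ± 0.39 to 10.5 ± 2.22 RPKM, a log2 difference of 2.16 (SE 0.16, limma adjusted p = 4.08e-06). Gch1, the first and limiting enzyme of synthesis, was at 2.80 ± 0.36 against 2.53 ± 0.38 RPKM (limma adjusted p = 0.344). The later enzymes Pts and Spr and the recycling enzyme Qdpr had log2 fold changes of 0.09, 0.11 and -0.12, none of them called, and all were called lower after centring (-0.31, -0.29 and -0.52).

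Protein arginine methyltransferases make the methylated proteins that yield methylarginines on breakdown. Their 7 tested genes rose as deposited, where 64.4% of all genes did, and 3 of 7 rose after centring, where 21.8% did. The median log2 fold change of these genes was 0.57 as deposited and 0.16 after centring, against 0.41 for all genes as deposited. Prmt2 rose most, from 5.24 ± 0.47 to 13.0 ± 0.65 RPKM, a log2 difference of 1.23 (limma adjusted p = 2.11e-06). Prmt1, the main asymmetric methyltransferase, went from 13.2 ± 1.06 to 19.8 ± 0.75 RPKM, and Prmt3 and Prmt5 had log2 fold changes of 0.69 and 0.70. After centring Prmt1 was not called (0.16, limma adjusted p = 0.0531).

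Of 21 genes for proteins that bind or regulate the synthases, 14 rose and none was called lower. That is 66.7% higher, near the 64.4% of all genes, where 8.87% of all genes fell. After centring, 9 rose and 5 fell, or 42.9% and 23.8%, beside 21.8% and 24.1% of all genes. Sntb1, a member of the syntrophins of the dystrophin complex of muscle, rose from 3.39 ± 0.21 to 10.01 ± 0.99 RPKM (log2 fold change 1.43). Dlg4, a scaffold that holds the same synthase at synapses, rose from 1.84 ± 0.40 to 3.43 ± 0.36 RPKM. Dynll1, a dynein light chain that binds the neuronal synthase, rose from 8.89 ± 1.12 to 24.9 ± 2.74 RPKM, a log2 difference of 1.44 (SE 0.11, limma adjusted p = 5.13e-06). Sntb1, Dlg4 and Dynll1 were also called higher after centring.

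Calmodulin activates the synthases, and Calm2, a gene for it, rose from 64.2 ± 4.61 to 120 ± 12.3 RPKM (log2 fold change 0.89). The chaperone gene Hsp90aa1, a partner of the endothelial synthase, rose from 33.8 ± 1.92 to 89.3 ± 6.34 RPKM (log2 fold change 1.39). Its more abundant relative Hsp90ab1 rose less, from a mean of 293 to 427 RPKM (log2 fold change 0.54). After centring Hsp90ab1 was not called (0.13, limma adjusted p = 0.222). The caveolins hold synthases at the membrane. The muscle form Cav3 rose from 31.2 ± 2.12 to 51.4 ± 4.57 RPKM. The form of endothelial and other cells, Cav1, was not called at 83.8 ± 10.6 against 89.9 ± 12.1 (limma adjusted p = 0.442), and was called lower after centring (log2 fold change -0.51). Xdh, a source of superoxide that has been found with the neuronal synthase in heart cells, was not called at 33.5 ± 6.55 against 39.2 ± 4.29 RPKM (limma adjusted p = 0.132), and was called lower after centring (-0.64).

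The cyclic GMP branch, through which nitric oxide acts on vessels and heart, was uneven. Of 11 tested genes, 5 rose and 1 fell, or 45.5% and 9.09%, beside 64.4% and 8.87% of all genes. After centring, 3 rose and 6 fell, or 27.3% and 54.5%, beside 21.8% and 24.1% of all genes. The nitric oxide receptor subunits Gucy1a1 and Gucy1b1 measured 4.98 ± 0.54 against 5.08 ± 0.54 and 7.14 ± 0.93 against 6.79 ± 0.30 RPKM, and the kinase gene Prkg1 measured 13.9 ± 0.19 against 13.2 ± 0.96. None of these was called as deposited, with limma adjusted p = 0.806, 0.570 and 0.355, and all were called lower after centring (-0.44, -0.35 and -0.34). Mrvi1, a substrate of that kinase that acts on the inositol trisphosphate receptor, rose from 2.72 ± 0.22 to 20.5 ± 3.57 RPKM, a log2 difference of 2.69 (SE 0.11, limma adjusted p = 2.37e-07). Among phosphodiesterases, Pde1a and Pde9a rose by 1.01 and 0.87 on the log2 scale. Pde5a rose from 0.958 ± 0.177 to 1.44 ± 0.23 RPKM as deposited (limma adjusted p = 0.0169), but not after centring, nor without AAV-Cre library 2, and Vasp, another kinase substrate, rose by 0.60 but was not called after centring. Pde2a fell from 17.8 ± 2.07 to 14.0 ± 1.29 RPKM. Smooth muscle also uses this branch. Its markers had a sum over 5 genes of 1362 to 1782 RPKM in AAV-Cre against 191 to 343 in AAV-Luc. Of these 5, 4 rose, where 64.4% of all genes did. Among these markers, Acta2 was at a mean of 1359 against 146 RPKM and Cnn1 at 34.3 against 1.52 RPKM, while Smtn was at 109 against 126. Their part in the values of this branch was not tested.

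Genes for removal of nitric oxide and of nitrosylated thiols went both ways. Of 7 tested, 4 rose and 1 fell, or 57.1% and 14.3%, beside 64.4% and 8.87% of all genes. After centring, 2 rose and 4 fell, or 28.6% and 57.1%, beside 21.8% and 24.1% of all genes. Myoglobin (Mb), which scavenges nitric oxide in heart muscle, fell from 4275 ± 417 to 3169 ± 133 RPKM, a log2 difference of -0.43 (SE 0.09, limma adjusted p = 0.00143), with no overlap between groups. Akr1a1, a reductase of nitrosylated coenzyme A, rose from 66.8 ± 5.09 to 131 ± 6.32 RPKM (limma adjusted p = 4.21e-06), and the cytoglobin gene Cygb from 15.2 ± 1.24 to 27.6 ± 4.70. Adh5, the reductase of S-nitrosoglutathione, was at 30.9 ± 0.80 against 31.0 ± 1.43 RPKM (limma adjusted p = 0.984), and was called lower after centring (-0.41). Txn1, a thioredoxin that removes nitrosyl groups, rose by 0.31 and was not called after centring.

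**Figure D4:**
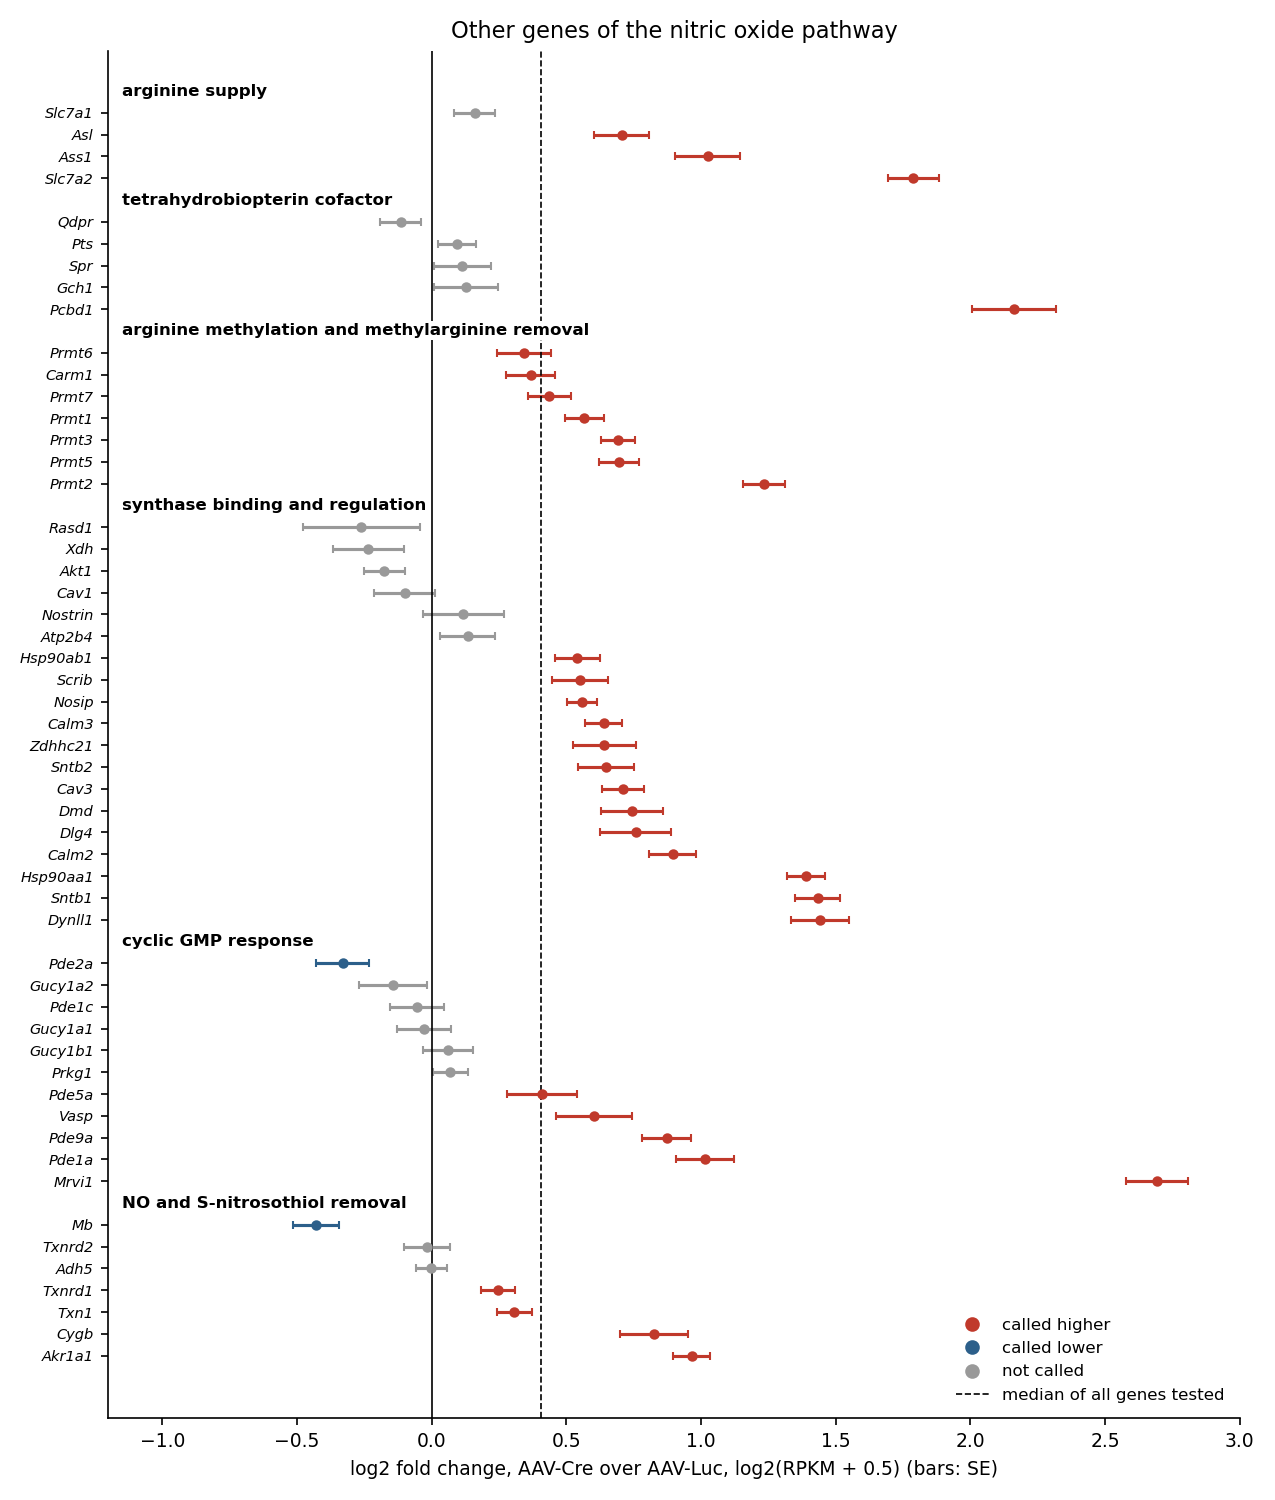
Log2 fold changes of AAV-Cre over AAV-Luc for 53 of the 55 tested pathway genes, grouped by role, with SE bars from limma. Red points were called higher, blue lower and grey not called, the solid line is 0 and the dashed line is the median of all genes tested, 0.41. Mrvi1, Pcbd1 and Slc7a2 lie farthest to the right, and genes of the cyclic GMP branch lie on both sides of the dashed line.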

How the data were processed

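RNA-seq values were taken as the authors deposited them, in RPKM per gene, in a table of 54429 rows with 4 columns for each group. The columns name a group but no sample, and the authors' group means in the same table were not used. The submitters' processing notes name STAR, edgeR, FastQC 0.11, Partek 6.6 and the build mm10. What each tool did, which annotation was used and whether strand was counted is not given in the sources used here.

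Filtering on 1 RPKM or more in 4 or more libraries left 16385 genes. These were compared by limma 3.58.1 in R 4.3.3 with a trended variance on log2(RPKM + 0.5), adjusted by Benjamini-Hochberg with a threshold of 0.05, a step tested on simulated data. Read totals were worked out from the steps of RPKM in genes with 1 transcript in GENCODE M21, where 97.7 to 98.2% of low values were whole reads within 0.1. The lengths of other genes are unknown, so no count model was fitted. The windows before listed start sites are from RefSeq.

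The 6 genes, the lists and the tests were chosen with earlier results of these data known. Named pathway genes are the 4 with the smallest p in each role and 16 chosen for their function. The 5 genes with profiles closest to Nos1, and 3 for each other gene, are named, leaving out unnamed gene models and pseudogenes. Counts cover the whole lists, but some single genes are not reported here. Others named are the genes that fell as deposited, overlapping genes, markers and Hsp90ab1. Alternatives were other pseudocounts, scalings, filters and variance settings, and leaving out libraries.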

Additional observations from a re-analysis of the deposited data

Results flagged for a closer look

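Among 88 groups of 4 libraries, 2 held a library far from the other 3, where chance alone would flag about 1 in 20 groups. Both concern Cygb, the cytoglobin gene: AAV-Cre library 1 was low at 20.6 RPKM, against 29.5 to 30.7 in the others, and AAV-Luc library 3 was low at 13.4 RPKM, against 15.7 to 16.1. No value of the 6 synthase and regulator genes was set apart in this way.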

How the results depend on the processing

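Nos1, Nos1ap and Ddah1 stayed higher and Nos2 and Nos3 lower in AAV-Cre under every alternative read for the 6 genes, and only sizes moved. Those were the pseudocounts, the scalings and the fits with libraries left out. Other filters and variance settings were read only for the pathway list. The log2 fold change of Nos1 was 6.03 with a pseudocount of 0.1, 4.63 with 1, 4.82 with centring and 4.71 with quantile normalization. With centring, quantile normalization, and rescaling without mitochondrial and haemoglobin genes, those of Nos2 were -1.04, -1.06 and -0.91, of Nos3 -0.61, -0.61 and -0.48, and of Nos1ap 0.49, 0.59 and 0.63. Ddah1 was at 1.04 with centring and 1.03 with quantile normalization. Ddah2 reversed, to -0.29, -0.27 and -0.14 in the same order. Each of these scalings removes part or all of the shift between the groups. Without the library of each group with most Myl7, Nos2 was at -0.59, Nos3 at -0.14 (SE 0.10) and Nos1ap at 0.97. In the same fit Ddah1 was at 1.55 and Ddah2 at 0.24. Leaving out each library in turn gave 5.10 to 5.31 for Nos1, -0.76 to -0.55 for Nos2, -0.28 to -0.17 for Nos3, 0.84 to 0.94 for Nos1ap, 1.36 to 1.53 for Ddah1 and 0.01 to 0.21 for Ddah2. Of the pathway list, 33 to 35 genes rose and 2 to 3 fell in those fits. With centring 20 rose and 19 fell, with quantile normalization 23 and 19, all of 55 tested, and with rescaling 27 and 13 of 58. With no filter on low values 34 rose and 3 fell of 63. Among these fits, the shares of all genes called were worked out only for centring, so nothing is read from the other counts.

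Some pathway genes with small differences changed direction. With centring, quantile normalization and rescaling, in that order, the log2 fold changes were -0.25, -0.25 and -0.10 for Slc7a1, -0.28, -0.30 and -0.11 for Gch1, -0.31, -0.32 and -0.16 for Pts, -0.29, -0.29 and -0.15 for Spr, -0.35, -0.35 and -0.20 for Gucy1b1, and -0.34, -0.32 and -0.20 for Prkg1. Txn1 was at -0.10 with centring and -0.061 with quantile normalization, where Pde5a was at -0.035. Adh5, near 0, was at 0.030 without the library of each group with most Myl7 and 0.026 with quality weights for the libraries. With single libraries left out, the values were -0.030 to 0.018 for Adh5, -0.087 to 0.034 for Gucy1a1 and -0.0099 to 0.123 for Gucy1b1, ranges that cross 0. No paired analysis was possible because the columns carry no number that ties libraries of the groups together. Read counts per gene are not known, so what depth limits in Nos1 and Nos2 was not tested.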

Other observations

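Gchfr, which encodes a feedback regulator of the first enzyme of tetrahydrobiopterin synthesis and was chosen here after its values were seen, was too low to pass the filter. Its mean was 0.235 RPKM in AAV-Cre and 1.09 in AAV-Luc.

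Profiles close to those of the other genes came from several functions. For Nos1ap they were Eno1, a glycolytic enzyme at 361 ± 32.8 against 190 ± 19.8 RPKM, Napepld and Col4a5, at root mean square differences of 0.038, 0.052 and 0.056. For Ddah1 they were Rasl11b, Sntb1 and Capg (0.070, 0.083 and 0.091). Sntb1 is also in the pathway list. For Nos2 they were Car7, Papln and Tspan15 (0.090, 0.114 and 0.118), for Nos3 Parl, Cox6a1 and Ndst1 (0.050, 0.053 and 0.054), and for Ddah2 Efna1, Stk10 and Parp14 (0.083, 0.085 and 0.086). By Pearson correlation, 1 of these 3 was kept for each of Nos2, Nos1ap and Ddah2, and none for Nos3 and Ddah1.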
